A study of Mus musculus with 14 samples.

Results

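The genes described here are 9 cartilage genes of mouse, comprising the SOX transcription factor genes Sox9, Sox5 and Sox6 and the matrix genes Acan, Hapln1, Matn2, Matn3, Matn4 and Chad. They were taken by symbol from a count table of 23331 genes, and each of the 9 symbols matched a single row. Their RNA was measured in 14 sequencing libraries from clonally derived bone marrow stromal cells, and the clones carry labels for the lineages they formed in culture: bone (osteogenic, O), fat (adipogenic, A) and cartilage (chondrogenic, C). The question put to these genes was whether their levels in undifferentiated cells followed the chondrogenic label. All cells came from flushed femora and tibiae of adult C57Bl/6 mice carrying the irtTA-GBD*-TAg transgene, through which dexamethasone and doxycycline induce large T antigen, a viral protein that keeps the cells dividing. All libraries share that transgene and earlier exposure to both inducers, and RNA was taken when the cells had grown 3 days without them.

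There were 3 libraries each of tripotent (OAC), osteo-adipogenic (OA), osteogenic-only (O) and adipogenic-only (A) cells, and 1 library each of osteo-chondrogenic (OC3) and adipo-chondrogenic (AC3) cells. A library numbered 1 or 2 is a single clone, each from a different mouse, and one numbered 3 is a pool of several further clones of those 2 mice. Chondrogenic-capable libraries were therefore 5 (OAC1, OAC2, OAC3, OC3 and AC3) and libraries without chondrogenic potential 9. OC3 and AC3 have no replicate, and all p-values rest on the variation among these particular clones and pools.

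Cartilage cells depend on SOX9, a factor that binds DNA through an HMG domain and activates the genes of cartilage matrix. SOX5 and SOX6 are closely related partners that lack an activation domain of their own and bind beside SOX9 at cartilage enhancers. Of the matrix proteins, aggrecan (Acan) is the large proteoglycan that holds water in cartilage, HAPLN1 is the link protein that ties aggrecan to hyaluronan, matrilins are adaptor proteins of the extracellular matrix, and chondroadherin (Chad) is a leucine-rich protein that binds collagen and integrin.

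Library totals lay between 16888190 and 26076539 counts. Levels are in CPM, a gene's count scaled to a common library size with TMM factors. The test was run on 13896 genes, those reaching 1 CPM in 3 or more libraries. Among the 9 cartilage genes, 6 passed this filter (Sox9, Sox5, Sox6, Matn2, Matn3 and Matn4), and Acan, Hapln1 and Chad did not. Library counts followed the GC content of genes to different degrees, with a Spearman rho across genes of 0.65 in OA2, 0.51 in O1, 0.36 in OAC2 and 0.35 in OAC1, and from -0.54 to -0.43 in OAC3, OC3, AC3, OA3, O2 and O3. Bone marrow stromal marker genes summed to between 18283 and 84516 CPM per library, whereas blood cell markers summed to at most 48.7 CPM, endothelial markers to at most 6.56 CPM and skeletal muscle markers to at most 0.700 CPM. Most of the stromal sum was Col1a1 and Col1a2, with medians of 31021 and 20315 CPM. Cxcl12 had a median of 2138 CPM and Pdgfrb 572 CPM. Lepr reached at most 2.73 CPM, and Thy1 had 3 reads over all libraries. Medians of the remaining stromal markers ran from 2.45 CPM (Nt5e) to 204 CPM (Prrx1). Several defining genes of mature cartilage were at or near 0 in every library, with at most 0.251 CPM for Col9a1, 0.476 CPM for Col9a2, 0.572 CPM for Matn1 and 0.150 CPM for Lect1 (chondromodulin). Col2a1, the main cartilage collagen gene, was read in every library, from 16.2 CPM in OA1 to 298 CPM in O3, with no split by chondrogenic label. Other cartilage collagen genes were read as well, with medians of 261 CPM for Col11a1, 16.5 CPM for Col10a1, a marker of hypertrophic cartilage, 7.44 CPM for Col11a2 and 2.91 CPM for Col9a3. The cells thus carried transcripts of some cartilage-defining genes and hardly any of others.

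Compared per kilobase of exonic length, the median level over the 14 libraries was highest for Matn2, at 29.1 CPM per kilobase. Sox9 followed at 4.27 CPM per kilobase, and its highest library (6.59) lay below the lowest library of Matn2 (14.3). Matn3 (0.623) and Matn4 (0.613) had nearly the same median, and their ranges over libraries overlapped with each other and with that of Sox5 (0.214). The highest library of Matn4 (4.26) also lay within the range of Sox9. Chad (0.0464), Sox6 (0.0198), Acan (0.00529) and Hapln1 (0) had the lowest medians and overlapping ranges. In OC3 the order differed, since Sox6 reached 1.30, Acan 0.813 and Hapln1 0.382 CPM per kilobase there. Each of these lay above Matn4 (0.278) and Sox5 (0.240) in that library.

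Sox9 was present in every library at a moderate level and did not follow chondrogenic potential. Its level in the tripotent libraries OAC1, OAC2 and OAC3 was 12.4, 8.73 and 19.7 CPM, and it was 25.4 CPM in OC3 and 24.4 CPM in AC3. In OA1, OA2 and OA3 it was 11.7, 24.7 and 23.8 CPM, it was 16.7, 27.3 and 13.6 CPM in the 3 osteogenic libraries O1 to O3, and in A1, A2 and A3 it was 6.16, 18.7 and 13 CPM. The highest value belonged to the osteogenic clone O2 and the lowest to the adipogenic clone A1, both without chondrogenic potential, and the chondrogenic-capable values lay between them. The mean was 18.1 ± 7.34 CPM (SD, n = 5) in chondrogenic-capable libraries and 17.3 ± 6.97 CPM (SD, n = 9) in the others. The log2 fold change was 0.07 ± 0.34 (SE), with an FDR of 0.974 by edgeR's quasi-likelihood test adjusted over all genes tested. In this comparison edgeR called 0.0% of the 13896 genes at an FDR of 0.05, that is 0 genes, and DESeq2 also called 0, while 577 genes (4.15%) had an edgeR p under 0.05 before adjustment.

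The Sox9 contrast had opposite signs in pools and in single clones. Among pools, OAC3, OC3 and AC3 against OA3, O3 and A3 gave a log2 fold change of 0.47 ± 0.27 (SE), and among single clones, OAC1 and OAC2 against the other 6 gave -0.72 ± 0.57. The difference between these contrasts, tested in 1 fit, was 1.19 ± 0.66 on the log2 scale (edgeR FDR 1.0). In that comparison edgeR called 0 genes (0.0%) and DESeq2 1 gene, and 124 genes (0.892%) had an edgeR p under 0.05 before adjustment. In bulk libraries, fewer cells with a transcript and less transcript per cell cannot be told apart, which holds for each value given here and matters most for pools of several clones.

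**Figure D1:**
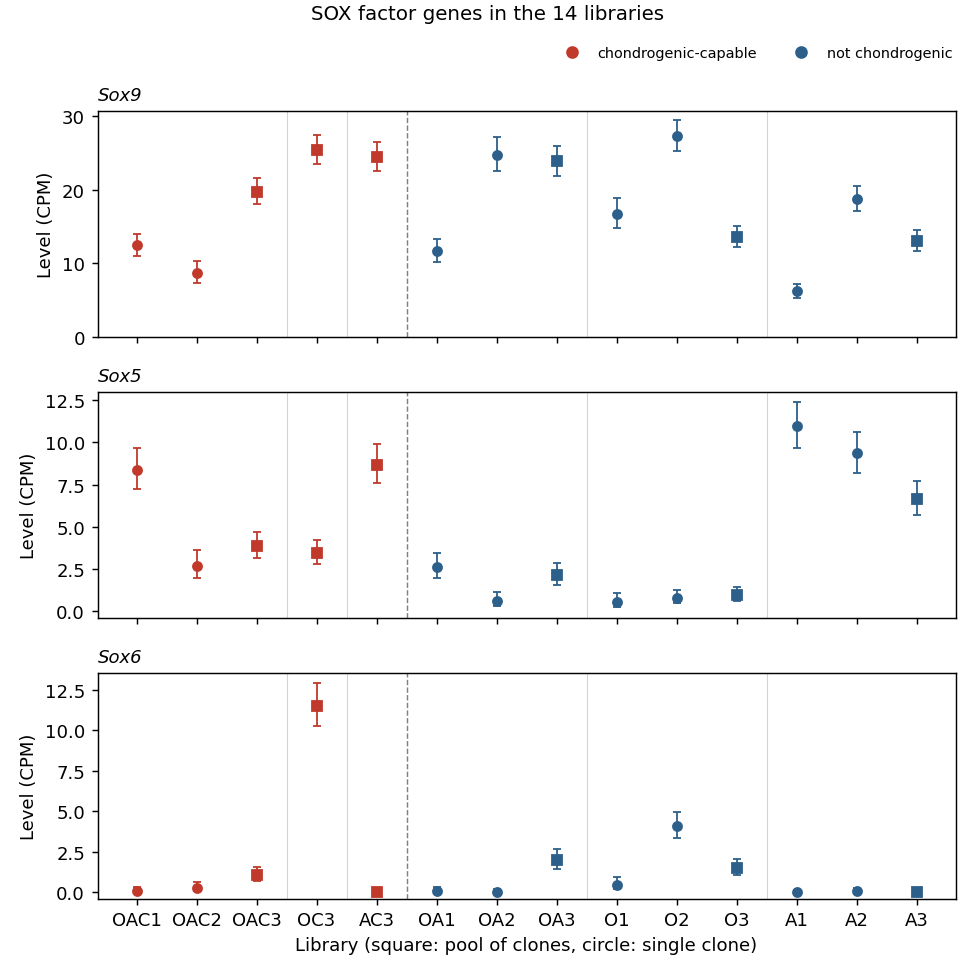
Levels of Sox9, Sox5 and Sox6 (CPM, linear axes) in the 14 libraries, with exact 95% Poisson intervals as bars, circles for single clones and squares for pools; red marks the 5 chondrogenic-capable libraries and blue the 9 others. Sox9 spans 6.16 to 27.3 CPM with no split by color, Sox5 is highest in A1, A2, AC3 and OAC1 and lowest in O1, OA2, O2 and O3, and Sox6 reaches 11.5 CPM in OC3.

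Sox5 was the cartilage gene whose level separated the osteogenic from the adipogenic libraries most plainly. It stood at 11 CPM in A1, 9.35 CPM in A2 and 6.63 CPM in A3, but at 0.572 CPM in O1, 0.811 CPM in O2 and 0.974 CPM in O3. The groups did not overlap, as was the case for 15.6% of all genes tested, and the lowest adipogenic library held several times the level of the highest osteogenic library. The log2 fold change, osteogenic over adipogenic, was -3.50 ± 0.63 (SE), which did not pass in edgeR (FDR 0.142) and passed in DESeq2 (adjusted p = 3.65e-06). edgeR called 1 gene (0.0072%) here, the hindlimb factor gene Pitx1, which is none of the 9, whereas DESeq2 called 420 (3.03%), of which 175 (1.26%) were lower in osteogenic libraries. Before adjustment 1374 genes (9.89%) had an edgeR p under 0.05. Leaving out any 1 library kept the Sox5 difference between -3.68 and -3.32, and without OA2 and O1 it was -3.34.

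The remaining groups filled the space between these extremes. Sox5 measured 8.38, 2.70 and 3.87 CPM in OAC1, OAC2 and OAC3, 2.65, 0.643 and 2.15 CPM in OA1, OA2 and OA3, 3.45 CPM in OC3 and 8.68 CPM in AC3. Ordered by mean, the replicated groups ran from A (8.98 ± 2.19 CPM, SD, n = 3) through OAC (4.98 ± 3.00) and OA (1.82 ± 1.05) to O (0.786 ± 0.202). Neighbouring A and OAC overlapped, as did OA and O, whereas OAC and OA did not overlap by a narrow margin of 2.70 against 2.65 CPM. A single test of any difference among these 4 groups gave an FDR of 0.563 by edgeR and an adjusted p of 2.49e-05 by DESeq2. For that test edgeR called 0 genes (0.0%) and DESeq2 291 (2.1%), and 829 genes (5.97%) had an edgeR p under 0.05 before adjustment.

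Arranged by osteogenic label, the 4 libraries without osteogenic potential (A1, A2, A3 and AC3) held 8.91 ± 1.79 CPM of Sox5 (SD, n = 4), and the 10 with it held 2.62 ± 2.35 CPM, from 0.572 to 8.38 with a median of 2.40. The ranges overlapped through OAC1 alone, since the next osteogenic-capable library was OAC3, and 1.06% of all genes tested had ranges that did not overlap. In a fit with osteogenic, adipogenic and chondrogenic potential as separate terms, the osteogenic term for Sox5 was -2.0 ± 0.50 on the log2 scale (SE), with an FDR of 0.352 by edgeR and an adjusted p of 0.00922 by DESeq2. On this term edgeR called 0 genes (0.0%) and DESeq2 177 (1.28%), of which 63 (0.455%) were lower with osteogenic potential, and 1090 genes (7.84%) had an edgeR p under 0.05 before adjustment.

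By chondrogenic label alone, Sox5 averaged 5.41 ± 2.88 CPM (SD, n = 5) against 3.86 ± 4.05 CPM (SD, n = 9), a log2 difference of 0.48 ± 0.71 (SE, edgeR FDR 0.938) with overlapping groups. When osteogenic and adipogenic potential were terms of the same fit, the chondrogenic term for Sox5 was 1.34 ± 0.43 (SE, edgeR FDR 0.809), and DESeq2 gave an adjusted p of 0.345. Tripotent against osteo-adipogenic libraries, which differ by label only in chondrogenic potential, gave 1.45 ± 0.58 (SE, edgeR FDR 1.0, with an unadjusted p under 0.05). That comparison had 0 calls by either tool (0.0% by edgeR) and 163 genes (1.17%) with an edgeR p under 0.05 before adjustment, and groups did not overlap for 4.93% of genes. The tripotent over osteo-adipogenic difference of Sox5 lay between 0.85 and 1.83 with any 1 library left out, and was 1.07 without OA2 and O1.

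Sox6 was concentrated in few libraries, and its reads were almost all in libraries with osteogenic potential. OC3 held 304 of the 533 reads, at 11.5 CPM, followed by O2 with 4.09 CPM, OA3 with 1.97 CPM, O3 with 1.5 CPM and OAC3 with 1.07 CPM. The other values were 0.0882 CPM in OAC1, 0.251 CPM in OAC2, 0.100 CPM in OA1, 0.445 CPM in O1 and 0.0810 CPM in A2. No read was counted in OA2, A1, A3 and AC3, which allows up to 0.161 CPM in OA2, the shallowest of these, where 3 reads would be the limit of a count of 0. The 10 osteogenic-capable libraries thus held 531 reads and the 4 others 2 reads.

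Sox6 therefore ran opposite to Sox5 between the osteogenic and the adipogenic group. O1, O2 and O3 held 148 reads and A1, A2 and A3 held 2, a ratio of pooled levels of 83.0 with an exact 95% counting interval of 22.6 to 692. O2 alone held 101 of the 148 reads, and the interval carries no variation between libraries. The fitted log2 difference of Sox6 was 5.98 ± 1.92 (SE), a value that depends on the prior count because the adipogenic group is near 0. It did not pass in edgeR (FDR 0.339) and passed in DESeq2 (adjusted p = 0.0348), among the 245 genes (1.77%) that DESeq2 called higher in osteogenic libraries. The osteogenic term for Sox6 was 4.45 ± 1.65 (SE), with an FDR of 0.523 by edgeR and an adjusted p of 0.121 by DESeq2, so it passed in neither tool. Among single clones alone that term was 0.33, and among pools alone it was 8.56. Over the 14 libraries, log2 levels of Sox5 and Sox6 had a Pearson r of -0.42 and a Spearman rho of -0.49, a description over libraries that share mice, clones of origin and GC trends.

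By chondrogenic label, the Sox6 values rested on OC3. The 5 chondrogenic-capable libraries had a mean of 2.58 ± 5.01 CPM (SD) and a median of 0.251 CPM, and the 9 others a mean of 0.910 ± 1.40 CPM and a median of 0.100 CPM. The log2 difference was 1.5 ± 1.40 (SE, edgeR FDR 0.938), and without OC3 it turned to -1.35 ± 1.51. The Sox6 level in OC3, its highest library, was 22.3 times the pooled level of the 3 tripotent libraries (exact 95% counting interval 15.5 to 33.0). Taking the highest library fixed the direction of this ratio.

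Windows of 250 bases upstream of the annotated starts of Sox5 and of the first listed start of Sox6 are printed here because these are the SOX genes whose levels separated the osteogenic from the adipogenic libraries. They are RefSeq sequences of build GRCm38.p6, at chr6:143947107-143947356 for Sox5 and chr7:116038745-116038994 for Sox6, both given on the minus strand, 5′ to 3′. RefSeq lists 6 starts for Sox6. Capitals mark ACAATG or ACAAAG, letters that SOX HMG domains can bind, searched on both strands.
Sox5: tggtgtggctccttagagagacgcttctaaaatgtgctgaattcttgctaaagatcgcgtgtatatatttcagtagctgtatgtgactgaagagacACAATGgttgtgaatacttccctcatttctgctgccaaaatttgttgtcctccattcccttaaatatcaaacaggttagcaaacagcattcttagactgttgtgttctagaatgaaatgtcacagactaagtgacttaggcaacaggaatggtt
Sox6: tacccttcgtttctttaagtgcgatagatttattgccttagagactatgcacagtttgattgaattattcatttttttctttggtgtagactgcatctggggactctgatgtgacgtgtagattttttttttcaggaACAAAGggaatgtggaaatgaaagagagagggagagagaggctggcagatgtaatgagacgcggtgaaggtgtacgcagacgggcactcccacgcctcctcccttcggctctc
The Sox5 window held ACAATG and the printed Sox6 window ACAAAG, at 1 place each, and the windows of the other 5 Sox6 starts held 1, 4, 1, 3 and 0 matches. Either set of letters occurred in 25.2% of 32851 promoter windows of this length, ACAATG in 10.7% and ACAAAG in 16.5%, so a match is a common feature of such windows and only describes the sequence.

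Acan, whose product is the main proteoglycan of cartilage, was read mainly in the osteo-chondrogenic pool. OC3 held 158 of its 207 reads (76.3%), a level of 5.98 CPM with an exact 95% Poisson interval of 5.09 to 6.99. The next libraries were OA3 with 15 reads (0.672 CPM), OAC1 with 14 (0.617 CPM), O3 with 11 (0.412 CPM) and OA2 with 5 (0.268 CPM). OAC3 held 2 reads, A3 and AC3 held 1 read each, and OAC2, OA1, O1, O2, A1 and A2 held 0 reads, which allows up to 0.191 CPM in O1, the library with the least precise 0. Taken as the highest library, OC3 had 35.7 times the pooled Acan level of the other 13 libraries (exact 95% counting interval 25.8 to 50.3). The direction of this ratio was fixed by that choice. Reads outside OC3 occurred in libraries with and without chondrogenic potential, including 2 of the 3 osteo-adipogenic libraries.

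Acan was below the expression filter and was tested only in a fit without it, over all 23331 genes. There the chondrogenic-capable libraries exceeded the others by 3.07 ± 1.27 on the log2 scale (SE, edgeR FDR 0.838, with an unadjusted p under 0.05). That fit called 0 genes (0.0%), and 954 (4.09%) had an edgeR p under 0.05 before adjustment. Without OC3 the fitted difference of Acan was 0.27 ± 1.25, and the pooled level of the other 4 chondrogenic-capable libraries was 1.21 times that of the 9 others, with a counting interval of 0.631 to 2.25. Among these 4, OAC1 alone had a level (0.617 CPM, exact 95% Poisson interval 0.337 to 1.04) above the pooled 0.157 CPM of the 9 others, while OAC2, OAC3 and AC3 held 3 reads together. In single clones the fitted difference was 2.76 ± 1.59 (SE, edgeR FDR 1.0). DESeq2 was run only on genes past the filter.

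Hapln1, the link protein gene, had reads in OA3 and OC3 and hardly elsewhere. OA3 held 53 reads (2.37 CPM, exact 95% Poisson interval 1.78 to 3.11), OC3 held 51 (1.93 CPM, 1.44 to 2.54) and OAC3 held 7 (0.276 CPM). O2 and A2 held 1 read each, and the other 9 libraries none. The 2 high libraries differ in chondrogenic label, and both are pools with osteogenic potential. As the 2 highest libraries, they had together 64.1 times the pooled Hapln1 level of the other 12 libraries (exact 95% counting interval 32.5 to 144). That choice of libraries fixed the direction of the ratio. The 6 pools held 111 of the 113 Hapln1 reads and the 8 single clones 2. In the fit without filter, the chondrogenic-capable libraries differed by 0.72 ± 1.49 on the log2 scale (SE, edgeR FDR 0.921), and by -1.81 without OC3. Schwann and neural markers, 8 of 10 in the table, summed to 97.5 CPM in OA3 and 69.9 CPM in OC3. The median of that sum over the 14 libraries was 34.7 CPM. Most of the sum in OA3 and OC3 was Tubb3 alone (84.8 and 59.9 CPM), and every other marker was highest in a different library. S100b was 7.39 CPM in OA3 and 5.19 CPM in OC3, below its 29.4 CPM in OAC2, which had no Hapln1 read. The part of these markers in the Hapln1 values was not tested.

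**Figure D2:**
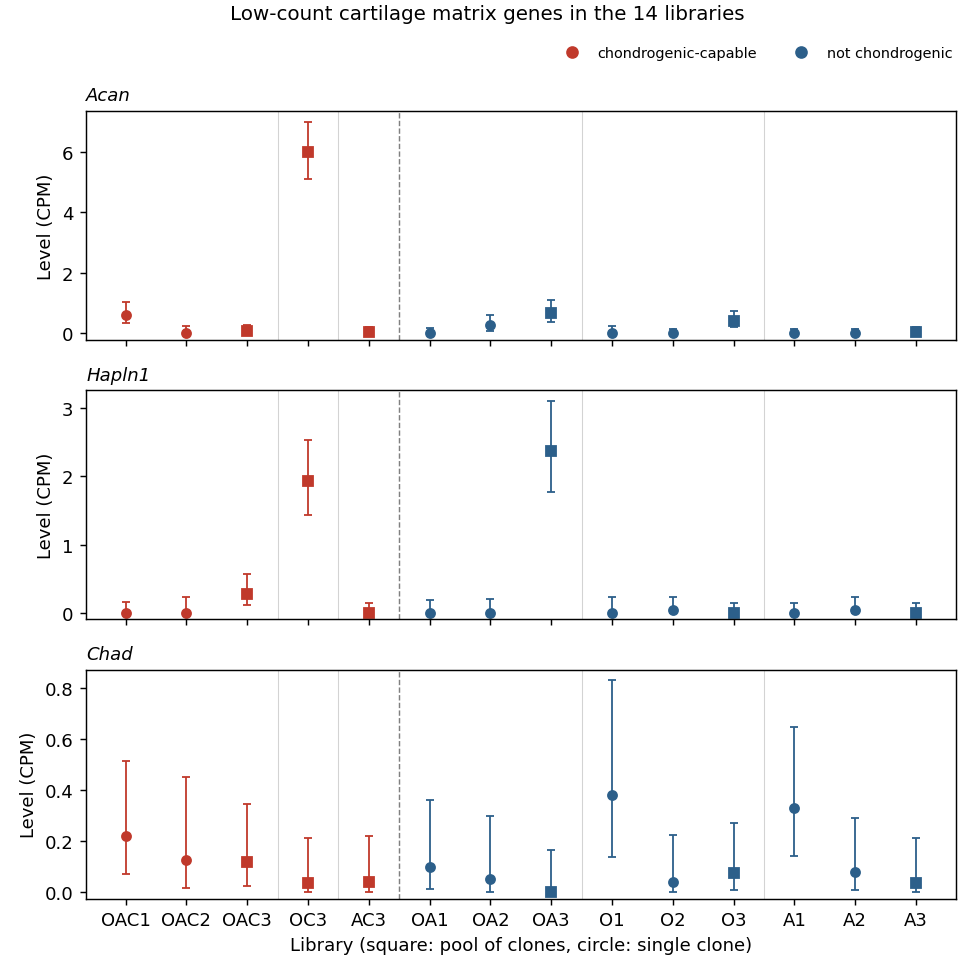
Levels of Acan, Hapln1 and Chad (CPM, linear axes that differ between panels) in the 14 libraries, with exact 95% Poisson intervals as bars, circles for single clones and squares for pools; red marks chondrogenic-capable and blue other libraries. Acan rises above 1 CPM in OC3 alone (5.98 CPM), Hapln1 in OC3 (1.93 CPM) and OA3 (2.37 CPM), and Chad in no library.

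Windows upstream of Acan and Hapln1 are printed because both genes were high in OC3. OA3 was the highest library of Hapln1 (2.37 CPM) and the next after OC3 for Acan (0.672 CPM). These windows are RefSeq sequences of build GRCm38.p6 at chr7:79052976-79053225 for Acan and chr13:89540386-89540635 for Hapln1, on the plus strand. Neither held ACAATG or ACAAAG on either strand, so they are in lower case throughout, and this says only that those letters are not in these 250 bases. The bases that follow each of these 2 windows were not found near the start of a GENCODE vM21 transcript of the gene, so the start sites of the 2 annotations may differ.
Acan: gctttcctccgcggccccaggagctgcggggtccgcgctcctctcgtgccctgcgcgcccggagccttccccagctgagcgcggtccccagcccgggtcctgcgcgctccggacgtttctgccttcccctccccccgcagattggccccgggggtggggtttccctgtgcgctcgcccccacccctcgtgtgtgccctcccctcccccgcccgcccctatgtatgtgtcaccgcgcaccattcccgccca
Hapln1: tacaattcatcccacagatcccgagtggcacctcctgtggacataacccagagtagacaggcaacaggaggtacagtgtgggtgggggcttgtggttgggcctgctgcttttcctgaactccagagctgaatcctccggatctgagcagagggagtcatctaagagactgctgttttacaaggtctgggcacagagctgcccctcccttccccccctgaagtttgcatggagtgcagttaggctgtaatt
Windows were found for 7 of the 9 genes, and those of Matn3, Matn4 and Chad held neither set of letters.

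OC3 was the library with the highest level for 2 of the 9 genes, Sox6 and Acan. Acan was below the expression filter. Of the 6 genes tested, OC3 was highest for Sox6 alone, beside 6.78% of all genes tested. Among other cartilage genes in OC3, Col11a1, a minor fibrillar collagen of cartilage, reached 1330 CPM, Fmod, a collagen-binding proteoglycan gene, 1008 CPM, and Ihh, the hedgehog ligand of growth cartilage, 8.29 CPM, the highest level of each over the 14 libraries. These 3 genes were singled out after their values were seen. Col2a1 in OC3 was 160 CPM, below OAC1, OA2, O3 and A3, and Lect1 had no read there. OC3 was highest for 1 of 6 tested cartilage collagen genes, 2 of 11 other cartilage matrix genes and 2 of 18 SOX and other chondrogenic factor genes. It was also highest for 2 of 18 chondrogenic signals and receptors and 1 of 23 glycosaminoglycan synthesis genes. Among matrix proteases and inhibitors it was highest for 0 of 15, and among genes related to Acan and Hapln1 for 0 of 2. The GC trend of OC3 had a rho of -0.54, that of OAC3 and AC3 likewise, and its part in the levels of Sox6 and Acan was not tested. OC3 has no replicate, so the osteo-chondrogenic label and this particular pool of clones cannot be told apart.

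Matn2, a matrilin found in many connective tissues, was by far the most abundant of the 9 per length and was high in every library. Chondrogenic-capable libraries held 110 CPM in OAC1, 93.2 CPM in OAC2, 87.3 CPM in OAC3, 133 CPM in OC3 and 242 CPM in AC3. The others were 79.9, 62.9 and 134 CPM in OA1, OA2 and OA3, 191, 137 and 99.8 CPM in the osteogenic libraries O1 to O3, and 143, 97 and 51.8 CPM in A1, A2 and A3. AC3 was the highest library, and the remaining chondrogenic-capable values lay within the range of the others. The means were 133 ± 63.5 CPM (SD, n = 5) and 111 ± 44.4 CPM (SD, n = 9), a log2 difference of 0.27 ± 0.31 (SE, edgeR FDR 0.938) that became -0.065 without AC3.

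Matn3, a matrilin of growth cartilage, showed similar levels in all chondrogenic-capable libraries and scattered levels in the others. It measured 2.29, 2.32 and 2.01 CPM in OAC1, OAC2 and OAC3, 2.54 CPM in OC3 and 1.74 CPM in AC3. Outside them it measured 2.5, 0.750 and 1.70 CPM in OA1, OA2 and OA3, 0.254, 2.84 and 1.27 CPM in the osteogenic libraries O1 to O3, and 2.26, 0.283 and 0.686 CPM in A1, A2 and A3. The chondrogenic-capable range of 1.74 to 2.54 CPM thus lay inside the range of the others, 0.254 to 2.84 CPM, and OA1, O2 and A1 were at such levels too. Means were 2.18 ± 0.308 CPM (SD, n = 5) and 1.39 ± 0.976 CPM (SD, n = 9), with a log2 difference of 0.64 ± 0.51 (SE, edgeR FDR 0.938), and the difference in spread was not tested.

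Matn4, a matrilin found in cartilage and many other tissues, was set apart by 2 single clones without chondrogenic potential. OA2 had 22.1 CPM and A1 had 19.1 CPM, while OA1 and OA3 had 2.70 and 3.23 CPM, A2 and A3 had 3.12 and 3.55 CPM, and O1, O2 and O3 had 3.24, 0.486 and 5.58 CPM. Chondrogenic-capable libraries had 4.54, 1.19 and 1.34 CPM in OAC1, OAC2 and OAC3, 1.44 CPM in OC3 and 2.38 CPM in AC3. The groups overlapped, and OAC1 lay above 6 of the 9 other libraries. Means were 2.18 ± 1.40 CPM (SD, n = 5) and 7.01 ± 7.85 CPM (SD, n = 9), and medians 1.44 and 3.24 CPM. The log2 difference of -1.68 ± 0.77 (SE) had an edgeR FDR of 0.938, with an unadjusted p under 0.05, and DESeq2 gave an adjusted p of 0.841. Pools alone gave -1.25 ± 0.37 (SE, edgeR FDR 0.395), and the difference without OA2 and O1 was -1.30. Tripotent against osteo-adipogenic libraries gave -1.98 ± 1.14 (SE, edgeR FDR 1.0), which fell to -0.28 without OA2.

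Chad stayed close to the limit of detection, with 35 reads over all libraries and at most 0.382 CPM, in O1. It had 12 reads in the 5 chondrogenic-capable and 23 reads in the 9 other libraries, with means of 0.108 ± 0.0752 and 0.122 ± 0.136 CPM (SD). In the fit without filter the log2 difference was -0.14 ± 0.76 (SE, edgeR FDR 0.974), so no difference in Chad was detectable at this depth.

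**Figure D3:**
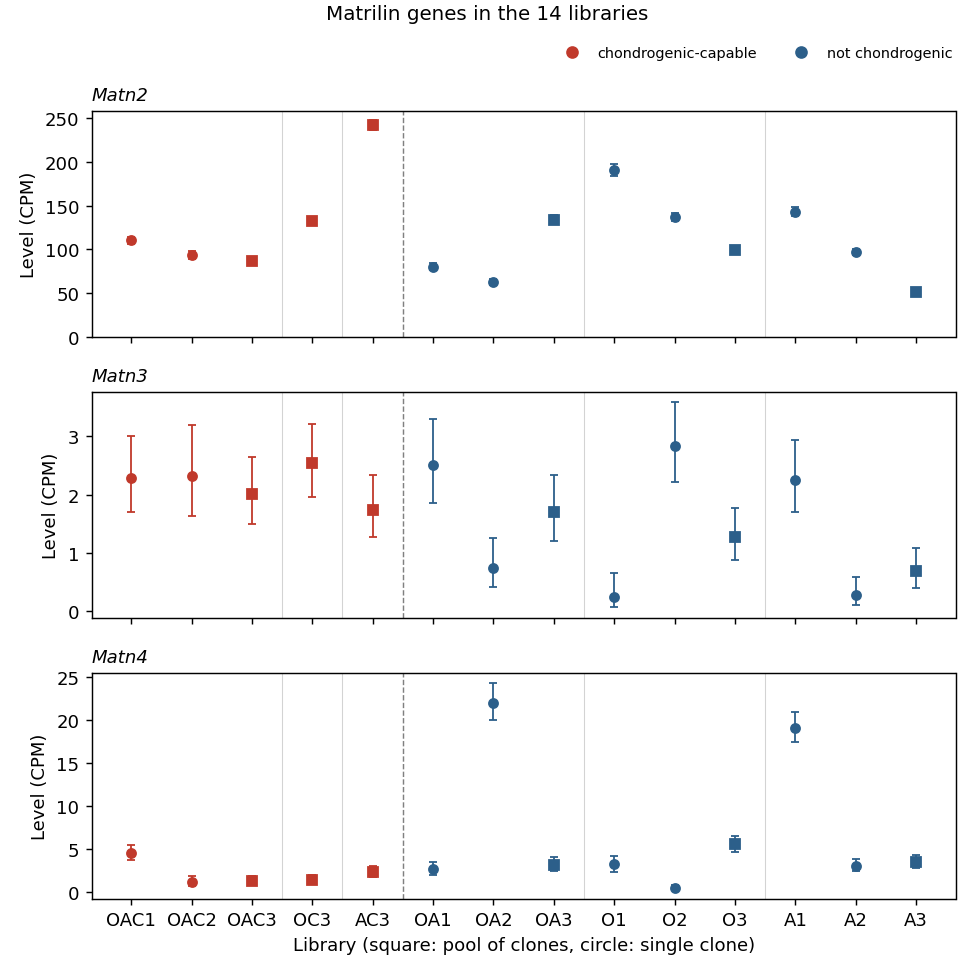
Levels of Matn2, Matn3 and Matn4 (CPM, linear axes that differ between panels) in the 14 libraries, with exact 95% Poisson intervals as bars, circles for single clones and squares for pools; red marks chondrogenic-capable and blue other libraries. Matn2 is highest in AC3 (242 CPM), Matn3 stays between 1.74 and 2.54 CPM in the chondrogenic-capable libraries, and Matn4 exceeds 19 CPM only in OA2 and A1.

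In the comparison by chondrogenic label, then, 0 of the 6 genes tested passed (background 0.0%), and of the 6 only Matn4 had an unadjusted p under 0.05, against 4.15% of all genes. None of the 6 had groups that did not overlap, against 0.166% of all genes. The direction of the fitted difference was the same with all libraries, without OC3, in pools and in single clones for Sox5, Acan and Matn3 (higher) and for Matn4 (lower), and it was not the same for Sox9, Sox6, Hapln1, Matn2 and Chad. These choices share libraries. For Acan, OC3 held 158 of the 188 reads in pools, and OAC1 held 14 of the 19 reads in single clones. In tripotent against osteo-adipogenic libraries, Sox9 differed by -0.56 ± 0.48, Sox6 by -0.55 ± 1.46, Matn2 by 0.07 ± 0.40 and Matn3 by 0.42 ± 0.87 on the log2 scale (SE, edgeR FDR 1.0 for each). In osteogenic against adipogenic libraries, Sox9 differed by 0.61 ± 0.48, Matn2 by 0.55 ± 0.40, Matn3 by 0.45 ± 0.87 and Matn4 by -1.47 ± 1.12 (SE), and these passed in neither tool. In each of these comparisons some of the cartilage genes were higher and others lower.

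The 3 genes below the filter were also fitted without it in these comparisons, over all 23331 genes, and passed in none. Tripotent libraries held 16 Acan reads and osteo-adipogenic libraries 20, a log2 difference of -0.39 ± 1.48 (SE). For Hapln1 the reads were 7 and 53, with a difference of -2.91 ± 1.73 that turned to 4.26 without OA3, and for Chad they were 10 and 3, with 1.53 ± 1.20 (edgeR FDR 1.0 for each of the 3, background 0.0%). Osteogenic libraries held 11 Acan reads, all in O3, and adipogenic libraries 1, with a fitted difference of 3.02 ± 2.01 that turned to -1.75 without O3 (SE, edgeR FDR 0.825, background 0.00857%). Hapln1 had 1 read in each of these groups, and Chad had 9 and 11, with 0.063 ± 1.11 (SE, edgeR FDR 1.0). By osteogenic label, Acan had 205 reads in the 10 capable libraries and 2 in the 4 others, and Hapln1 had 112 and 1. OC3 alone held 158 of the Acan reads, and OA3 and OC3 held 53 and 51 of the Hapln1 reads. Of the 10 capable libraries, 4 had no Acan read and 6 no Hapln1 read. The osteogenic terms were 3.53 ± 1.86 for Acan and 4.90 ± 2.40 for Hapln1 (SE, edgeR FDR 0.758 for each, background 0.0%). These values depend on the prior count because the libraries without osteogenic potential are near 0. That of Chad was -0.16 ± 1.03 (SE, edgeR FDR 0.991).

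**Figure D4:**
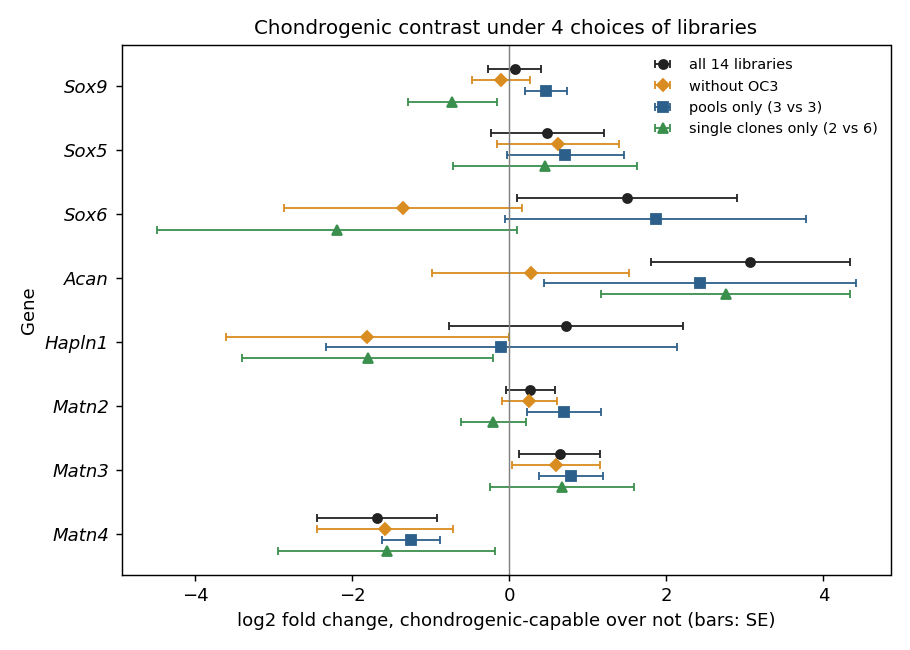
Fitted log2 fold change of each gene, chondrogenic-capable over other libraries (horizontal axis, log2 units), with all 14 libraries, without OC3, in pools only and in single clones only; bars are the SE, and Acan and Hapln1 come from fits without the expression filter. Sox5, Acan, Matn3 and Matn4 stay on 1 side of 0 in all 4 choices, whereas Sox6 moves from 1.5 to -1.35 and Acan from 3.07 to 0.27 when OC3 is left out.

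Other genes of cartilage formation, kept in lists chosen for their roles, also showed no call by chondrogenic label. Of the cartilage collagens 6 of 8 were tested, of other cartilage matrix proteins 11 of 20, of SOX and other chondrogenic transcription factors 18 of 26, of chondrogenic signals and receptors 18 of 24, of glycosaminoglycan synthesis enzymes 23 of 26 and of matrix proteases and inhibitors 15 of 17. In each of these lists, and in the other 7 including the markers of other cell types, 0 genes rose and 0 fell by edgeR or DESeq2. For the lists just named the median log2 differences were -0.01, 0.09, 0.03, 0.15, -0.04 and -0.10, beside -0.02 over all genes tested. Genes of the 13 lists named by the lowest p within their list included Vcan, a proteoglycan gene related to Acan (1.38 ± 0.66, SE), Col11a1 (1.39 ± 0.81), Chsy1, a chondroitin synthase gene (0.53 ± 0.19), and Adamts5, an aggrecanase gene (1.23 ± 0.53), each with an edgeR FDR of 0.938. Others picked by the same rule were lower, such as Mmp2 among the proteases (-1.30 ± 0.64) and B3gat3 among the glycosaminoglycan enzymes (-0.28 ± 0.17), also with an FDR of 0.938. Of the 23 glycosaminoglycan enzymes tested, 9 had a log2 difference above 0 and 14 below. Of the 15 proteases and inhibitors, 7 were above and 8 below. Vcan reached 2217 CPM and Adamts5 299 CPM in AC3, their highest library, where Acan had 1 read. Between osteogenic and adipogenic libraries, DESeq2 called 1.77% of all genes higher and 1.26% lower. Of the 11 matrix genes 2 rose by DESeq2 (Comp and Fmod) and 0 fell, of the 18 factors 2 rose (Pitx1 and Wwp2, a ubiquitin ligase gene that SOX9 regulates) and 1 fell (Foxc2), and of the 18 signals and receptors 4 rose (Ihh, Ptch1, Wnt5b and Pth1r) and 1 fell (Gdf6). Of the collagens 0 rose and 0 fell, of the glycosaminoglycan enzymes 1 rose (Extl1) and 1 fell (Chst15), and of the proteases and inhibitors 1 rose (Mmp3) and 0 fell.

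The genes most like each cartilage gene were taken by Pearson r of log2 CPM over the 14 libraries, among tested genes that averaged at least 5 CPM. For Sox5 they were Cyp1b1 (r = 0.94), Abca1 (0.93) and Apbb2 (0.92), and with the 2 libraries farthest from the median left out r was 0.91, 0.93 and 0.92. For Sox6 they were Gramd2 (0.92), Xpot (0.90) and Pappa2 (0.89), and for Sox9 Rps25-ps1 (0.87), Gng10 (0.86) and Tmem59 (0.85). For Matn2 they were Tbx18 (0.82), Snai2 (0.82) and Sned1 (0.78), and for Matn3 Lnx2 (0.89), Dlx6 (0.89) and Cbll1 (0.88). Of the 9 cartilage genes only Sox9, Matn2 and Matn4 were tested and averaged at least 5 CPM. Only these could be listed as nearest genes of another, and none was. The absence of the rest was fixed by that limit. Between the 6 tested cartilage genes themselves, r ran from -0.59 (Sox6 with Matn4) to 0.46 (Sox9 with Sox6). All these r values describe libraries that share mice, clones of origin and GC trends.

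The genes most like Matn4 were Elmo2 (r = 0.92), Gle1 (0.92) and Stk35 (0.91), which like Matn4 lie on chromosome 2 in RefSeq's annotation of GRCm38. Of the 100 tested genes with the highest r with Matn4, 42 lie on chromosome 2, which holds 8.24% of the mapped genes tested. Matn3 likewise exceeded its share, with 16 of its 100 on chromosome 12, which holds 3.31%. On their own chromosomes Sox9 had 8 (share 8.66%), Sox5 7 (4.78%), Matn2 6 (3.93%) and Sox6 2 (7.29%). These counts were made after the nearest genes had been seen. The 100 tested genes nearest to Matn4 on the chromosome had a median log2 deviation, each from its own mean over the 14 libraries, of 0.33 in OA2 and 0.14 in A1, beside deviations of 2.76 and 2.56 for Matn4 itself. The same median was 0.48 in OA1, where Matn4 had 2.70 CPM. Over the 14 libraries, Matn4 and this median had a Pearson r of 0.64 and a Spearman rho of 0.61. For the other tested cartilage genes and the median of their own neighbours, r ran from -0.55 (Sox6) to 0.74 (Matn3). What links Matn4 to genes of its chromosome was not tested.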

How the data were processed

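Polyadenylated RNA of 14 libraries was enriched on oligo(dT) beads and sequenced with a strand-specific protocol, per the labels. The deposited values are raw read counts, 1 row per gene with its exonic length, and columns were matched to libraries by name. Per the submitters' processing notes, CASAVA 1.8.0, bedtools 2.11 and build mm9 were used. For the aligner, read filters and strand setting, nothing is given in the sources used here, so counts of overlapping or antisense genes are uncertain.

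The 9 genes, the 13 lists of other genes and the tests were chosen with earlier results of these data known. All 9 genes are named in the comparisons by chondrogenic label, tripotent against osteo-adipogenic and osteogenic against adipogenic, where Acan, Hapln1 and Chad come from edgeR fits without the filter. Of each list the genes past the threshold are named, otherwise up to 3 with the lowest p by chondrogenic label among those averaging at least 5 CPM, with some of them left out here. Genes named for OC3, AC3 or neural markers were picked after their values were seen.

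The 13896 genes that reached 1 CPM in 3 or more libraries were tested in edgeR 4.0.16 (R 4.3.3) by its quasi-likelihood F test (TMM factors, robust), adjusted by Benjamini-Hochberg over all of them (FDR, threshold 0.05). The fits were 2 groups (5 against 9, 12 residual degrees of freedom), 6 group means (8) and 3 additive potentials (10). A positive log2 value means higher in the group named first. SE was derived as the size of the log2 fold change over the root of F. DESeq2 1.42.0 was the second tool. The osteogenic term and the difference between pools and single clones were added after the data were seen. Single values have exact Poisson intervals (95%, counting error only, as molecular identifiers were not used), and a count of 0 allows up to 3 reads. Ratios of pooled counts have exact binomial counting intervals, which hold counting error only and no variation between libraries. Both tools were tested on simulated counts. Alternatives were other normalization, no filter, a GC offset (GENCODE vM21 transcripts, 93.5% of genes), leaving out libraries, pools or clones alone, and the replicate number as a block. Mouse numbers are not tied across groups by the labels. Promoter windows come from RefSeq (GRCm38.p6), a later build than mm9, and no coordinates were converted.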

Additional observations from a re-analysis of the deposited data

Results flagged for a closer look

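Within the 5 chondrogenic-capable and the 9 other libraries, the levels of the 9 cartilage genes gave 18 groups of values, and in 5 of them a single library lay far from the rest, by the ratio of its gap to the whole range. Chance flags about 1 in 20 such groups, and low counts with many values of 0 make such gaps more likely. OC3 lay far above the other chondrogenic-capable libraries for Sox6 (11.5 CPM), Acan (5.98 CPM) and Hapln1 (1.93 CPM). O2 lay far above the other libraries without chondrogenic potential for Sox6 (4.09 CPM), and OA3 did so for Hapln1 (2.37 CPM).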

How the results depend on the processing

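Over 696 recomputed values, 642 kept their direction and their side of the threshold, 51 changed direction and 3 newly passed it. The 3 were DESeq2 results, Sox5 (-3.46) and Sox6 (6.26) between osteogenic and adipogenic libraries and Sox5 on the osteogenic term (-1.97). Of 32 differences of single genes, 18 never changed direction. For the Sox9 difference between pools and single clones, the values counted included the chondrogenic term of the additive fit (0.098) and the chondrogenic contrast of 6 group means. Those measure the chondrogenic contrast itself and do not recompute that difference. For Sox9 by chondrogenic label the difference was -0.011 with the replicate block, -0.024 with the GC offset and replicate block, -0.72 in single clones and -0.10 to 0.24 with 1 library left out. Sox6 by that label was -2.20 in single clones, -0.20 as a mean of 6 group means and -1.35 to 2.32 with 1 library left out, and in tripotent against osteo-adipogenic libraries 1.61 in single clones and -2.05 to 3.09. Hapln1 by chondrogenic label was -0.20 with the replicate block, -0.42 with the GC offset and replicate block, -1.81 in single clones, -0.10 in pools and -1.81 to 4.78 with 1 library left out. In tripotent against osteo-adipogenic libraries Acan was 1.20 in single clones and -2.69 to 0.76 with 1 library left out, and Hapln1 -7.16 to 4.26. Between osteogenic and adipogenic libraries Acan was -1.75 to 4.77 with 1 library left out, and on the osteogenic term Hapln1 was -2.11 in single clones. Chad by chondrogenic label was 0.45 with the replicate block, 0.53 with the GC offset and replicate block, 0.16 without OA2 and O1, 0.15 in single clones, 0.67 in pools and -0.58 to 0.24 with 1 library left out. Between osteogenic and adipogenic libraries Chad was -0.037 with the GC offset, -1.28 without OA2 and O1, -0.0012 in single clones and -1.29 to 1.31 with 1 library left out, and on the osteogenic term 0.53 in pools and -0.79 to 0.84. Matn2 by chondrogenic label was -0.20 in single clones and -0.065 to 0.40 with 1 library left out, and in tripotent against osteo-adipogenic libraries it was -0.13 without OA2 and O1 and -0.095 to 0.44 with 1 library left out. Matn3 between osteogenic and adipogenic libraries was -0.46 to 1.58 with 1 library left out. The causes of these changes were not tested.

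Between osteogenic and adipogenic libraries the count of calls, 1 in edgeR, was 420 in DESeq2, 6 with the GC offset, 2 without the filter, 0 in single clones, 3 without OA2 and O1 and 0 to 4 with 1 library left out (0 without A1 or A2, 4 without O3). Among the 4 replicated groups it was 291 in DESeq2, 1 with the GC offset, 1 without the filter and 0 to 1 with 1 library left out. On the osteogenic term it was 177 in DESeq2, 1 in pools and 0 to 1 with 1 library left out, and for the difference between pools and single clones it was 1 in DESeq2. The correlation of deviations of same-numbered libraries ran from -0.58 to 0.76 and exceeded 0.1 in 11 of 18 pairs, so the numbers were not taken to pair the libraries. The 6 pairs numbered 3, which are pools, all exceeded it (0.29 to 0.76). The replicate block called none of the 9 genes. Depth limits Acan, Hapln1 and Chad, which hold 207, 113 and 35 reads. DESeq2 was not run without the filter or with libraries left out. The planned comparison of protein sequences was not run.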
